A study of Mus musculus with 6 samples.

Results

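The 9 genes described here encode transcription factors that set up and maintain the macrophage lineage: Spi1 (the factor PU.1), Cebpa (C/EBPα), Runx1, Irf8, Klf4, Klf2, Maf (c-MAF), Egr2 and Pparg (PPARγ). They were chosen by gene name from the 14005 gene identifiers of the table comparing wild-type with Txn1 KO macrophages. Each of the 9 matched exactly 1 identifier, and all 9 passed the filter on low values. RNA came from primary bone marrow-derived macrophages (BMDM), macrophages grown in culture from mouse bone marrow, in 2 groups of 3 libraries. Both groups are labelled C57BL/6J, with pooled males and females. The controls were wild type. The other group, called Txn1 KO in the labels, carried the allele Txn1tm1.1Ees/J together with the knock-in B6.129P2-Lyz2tm1(cre)lfo/J, in which the myeloid gene Lyz2 drives a Cre recombinase and is itself interrupted. The wild-type controls are labelled with neither, so the Txn1 allele, the Cre and the loss of Lyz2 cannot be told apart for any factor. Whether the 3 libraries of a group are separate animals, separate cultures or repeats of 1 culture is not labelled, and the p-values therefore describe library-to-library spread that may be purely technical. Txn1 encodes thioredoxin-1, and the purpose stated for the series was to see what its loss does to the expression of NLRP1 inflammasome genes.

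Macrophages arise from blood progenitors through a small set of cooperating factors. PU.1 binds ETS sites across the macrophage genome, RUNX1 and C/EBPα act early to open and share those sites, and IRF8 pairs with PU.1 to direct progenitors toward monocytes. KLF4, KLF2, c-MAF, EGR2 and PPARγ act later, where they tune the mature cell: monocyte differentiation, restraint of inflammation, tissue residency, the response to interleukin-4 and the handling of lipids. In bulk RNA, fewer cells of a type and less RNA per cell cannot be told apart.

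Levels are given as normalized counts, the authors' reads per gene divided by 1 size factor per library. Differences are given as log2 of Txn1 KO over wild type on log2(normalized count + 1), with the standard error (SE) and the Benjamini-Hochberg adjusted p of a limma fit over all 13977 genes tested. A gene was called at an adjusted p under 0.05, two-sided. Of the 9 factors, 6 were called: Egr2, Klf2 and Cebpa rose in the libraries labelled Txn1 KO, and Maf, Klf4 and Pparg fell. Spi1, Runx1 and Irf8 did not pass the test. Over all tested genes 21.5% were called, 11.5% as higher and 9.97% as lower. The 9 factors were chosen with earlier results of these data known, so their share is a description only. For 8 of the 9 factors the wild-type and Txn1 KO ranges were separate (5 higher, 3 lower), as they were for 36.2% of all tested genes. The authors' deposited table and edgeR on the recovered reads also called 6 of the 9, with 19.2% and 21.2% of all genes called. Without the 2 libraries that carry liver transcripts, described below, 5 of the 9 were called, with 15.7% of all genes.

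**Figure D1:**
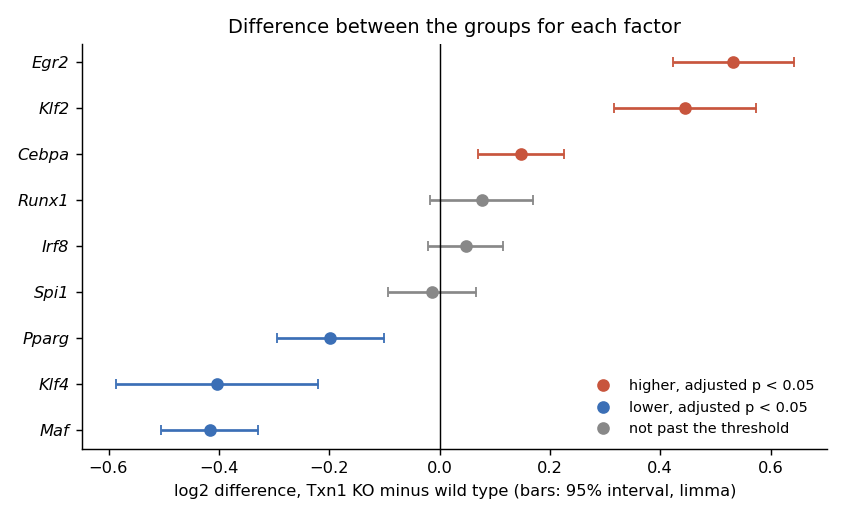
Log2 difference between Txn1 KO and wild type (horizontal axis) for each of the 9 factors, with 95% intervals from limma. Egr2, Klf2 and Cebpa lie above 0, Maf, Klf4 and Pparg below it, and the intervals of Runx1, Irf8 and Spi1 include 0.

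Promoters of 3 called factors are shown because each has a single annotated start and because Klf2 and Klf4, close relatives, went in opposite directions. The RefSeq table (GRCm38.p6) held promoters for 7 of the 9 symbols, and Spi1 and Maf had no entry. Each sequence is the 250 bases before the start, read 5′ to 3′ on the strand of the gene, with GC boxes (GGGCGG on either strand) in capitals. GC boxes are bound by SP and KLF proteins.
Klf2 promoter (chr8:72318812-72319061, plus strand): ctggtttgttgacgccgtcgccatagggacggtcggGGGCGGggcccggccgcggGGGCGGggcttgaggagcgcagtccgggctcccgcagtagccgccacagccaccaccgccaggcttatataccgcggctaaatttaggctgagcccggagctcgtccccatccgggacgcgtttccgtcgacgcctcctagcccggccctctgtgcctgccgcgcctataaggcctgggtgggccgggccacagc
Klf4 promoter (chr4:55532476-55532725, minus strand): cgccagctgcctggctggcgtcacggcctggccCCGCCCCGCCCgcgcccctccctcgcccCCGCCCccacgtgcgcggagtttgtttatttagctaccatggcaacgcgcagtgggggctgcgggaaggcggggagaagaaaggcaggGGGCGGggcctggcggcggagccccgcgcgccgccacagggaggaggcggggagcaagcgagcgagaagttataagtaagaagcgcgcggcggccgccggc
Cebpa promoter (chr7:35119043-35119292, plus strand): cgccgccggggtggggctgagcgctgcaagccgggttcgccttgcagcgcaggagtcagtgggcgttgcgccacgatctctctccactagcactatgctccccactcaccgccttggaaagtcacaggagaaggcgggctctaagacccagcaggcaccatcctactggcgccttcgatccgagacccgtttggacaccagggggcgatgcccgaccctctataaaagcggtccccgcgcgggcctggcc

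The Klf2 window held 2 GC boxes, beginning 214 and 195 bases before the start, and the Klf4 window held 4, beginning 217, 212, 189 and 101 bases before it. The Cebpa window held 0 GC boxes and had a TATA box (TATAAA) 30 bases before the start. Of all 32851 promoter windows of this length in the table, 32.7% held a GC box and 12.4% held TATAAA on either strand. The EGR site GCGNGGGCG, the recognition sequence of the family of Egr2, matched 1 time in the Klf2 window and 2 times in the Klf4 window, and all 3 matches overlapped a GC box. That site was in 4.70% of all windows. Klf2 and Klf4 thus share both motifs while their transcripts moved in opposite directions. A letter match is a description and says nothing on binding in these cells. The RUNX site TGTGGT, the IRF element (a pair of GAAA blocks separated by 2 bases), the MAF element TGCTGAC and the KLF sequence CCACACCC, searched on both strands, matched in 0 of the 15 windows of the 7 factors. They were in 14%, 2.98%, 3.81% and 3.20% of all windows. The PU.1 core GAGGAA was found in windows of Egr2, Pparg and Runx1 (23.3% of all windows), and the C/EBP site TTGCNNAA in 1 of the 3 Pparg windows (9.56% of all).

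Whole reads recovered from the normalized values summed to between 22508616 and 38726953 per library, and the smallest level told from 0 (3 reads, counting error only) was 2.33 to 4.04 normalized counts, far below every factor. As a check of the labels, Lyz2 kept 0.856% of its wild-type level in the libraries labelled Txn1 KO, while Txn1, summed over the whole gene, did not pass the test (log2 -0.03, adjusted p = 0.686, limma), so the values show the Cre knock-in but cannot show the deletion. Wild-type replicate 1 and Txn1 KO library 3 also carried liver transcripts: 7 of 12 liver markers were listed, Trf and Alb the highest, and Alb had 642.9 and 580.0 normalized counts there and at most 0.838 in the other 4. Results on the factors that change without these 2 libraries are given beside them. All 10 macrophage markers were listed, under 11 identifiers with Cd63 and Csf1r the highest, and their summed level ran from 230487 to 234626 normalized counts in wild type and from 227764 to 229811 in Txn1 KO, with none at 0. The sum hides changes both ways: 3 of the 11 identifiers were called higher and 4 lower (63.6%, against 21.5% of all tested genes). Of the markers of other cells, 1 of 8 T and NK cell genes was listed (Lck, 11.5 to 32.5 normalized counts) and 3 of 8 B cell genes, of which Blnk and Ighm were the highest. The B cell genes summed to 2618 to 2704 normalized counts in wild type and 2357 to 2439 in Txn1 KO. Of these 3 genes, 1 was called lower and 0 higher (33.3%, against 21.5% of all tested genes). Neutrophil markers, 7 of 12 listed with S100a8 and S100a9 the highest, summed to 309.8 to 343.8 in wild type and 308.2 to 394.1 in Txn1 KO, and dendritic cell markers, 8 of 10 listed with Ccr7 and Kmo the highest, to 295.3 to 342.1 and 384.6 to 432.0. Of the 7 neutrophil markers 1 was called higher and 2 lower (42.9%, against 21.5% of all tested genes). Only 1 of the 8 dendritic cell markers was called (12.5%), as higher, and their median log2 difference was -0.18. Monocyte markers, 7 of 8 listed with Ccr2 and Chil3 the highest, summed to 770.1 to 906.8 and 730.3 to 807.6 normalized counts. Among these 7, 1 was called higher and 1 lower (28.6%). Of the erythroid and megakaryocyte markers 1 of 9 was listed (Itga2b, 17.6 to 33.6 in wild type and 44.4 to 76.5 in Txn1 KO). Osteoclast markers, 7 of 9 listed with Atp6v0d2 and Itgb3 the highest, summed to 24009 to 24429 in wild type and 27458 to 30616 in Txn1 KO. Their part in the results below was not tested.

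Of the founding factors of the lineage, Cebpa rose slightly, and Spi1, Runx1 and Irf8 did not pass the test. Spi1 (ENSMUSG00000002111, chr2:91082390-91115756), which encodes PU.1, the ETS factor that macrophages cannot form without, had 13507, 12140 and 12891 normalized counts in the wild-type replicates and 12960, 12527 and 12656 in Txn1 KO. The Txn1 KO values lie inside the wild-type range, and Spi1 is the 1 factor whose groups overlap. Its log2 difference was -0.01 ± 0.038 (SE; limma adjusted p = 0.853). A 95% interval put Txn1 KO at 93.7% to 105% of the wild-type level. The sign turned without wild-type replicate 1 (0.023) and without both libraries with liver transcripts (0.027).

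Runx1 (ENSMUSG00000022952, chr16:92601466-92826149) encodes the DNA-binding subunit of core binding factor, which opens the Spi1 locus in blood progenitors. It had 1926, 1779 and 1824 normalized counts in wild type and 1951, 1932 and 1943 in Txn1 KO. All 3 Txn1 KO libraries lay above all 3 wild-type ones, but wild-type replicate 1 was close to them and the difference did not pass the test (log2 0.08 ± 0.044, SE; limma adjusted p = 0.254). The interval of its ratio was 98.8% to 113%. Irf8 (ENSMUSG00000041515, chr8:120736358-120756694), the partner of PU.1 in monocyte commitment, had 8083, 7839 and 8035 normalized counts in wild type and 8200, 8279 and 8277 in Txn1 KO. The groups did not overlap, and the difference did not pass the test (log2 0.05 ± 0.032, SE; limma adjusted p = 0.337), with an interval of 98.6% to 108% of wild type.

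Cebpa (ENSMUSG00000034957, chr7:35119293-35121928) encodes the basic leucine zipper factor that, with PU.1, turns progenitors into myeloid cells. It was the founding factor that rose, from 5201, 4949 and 5196 normalized counts in wild type to 5823, 5673 and 5496 in Txn1 KO. Every Txn1 KO library was above every wild-type library. The rise was small, to 111% of wild type (log2 0.15 ± 0.037, SE; limma adjusted p = 0.00811). It missed the threshold without Txn1 KO library 1 (log2 0.13, limma adjusted p = 0.0515). Hepatocytes also express Cebpa, and without both libraries with liver transcripts the rise was 0.18 (limma adjusted p = 0.0105). An antisense gene, Gm45091, overlaps 1.93% of its exon bases. The strand setting of the counting is not known here, so reads of the 2 genes may be mixed there.

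**Figure D2:**
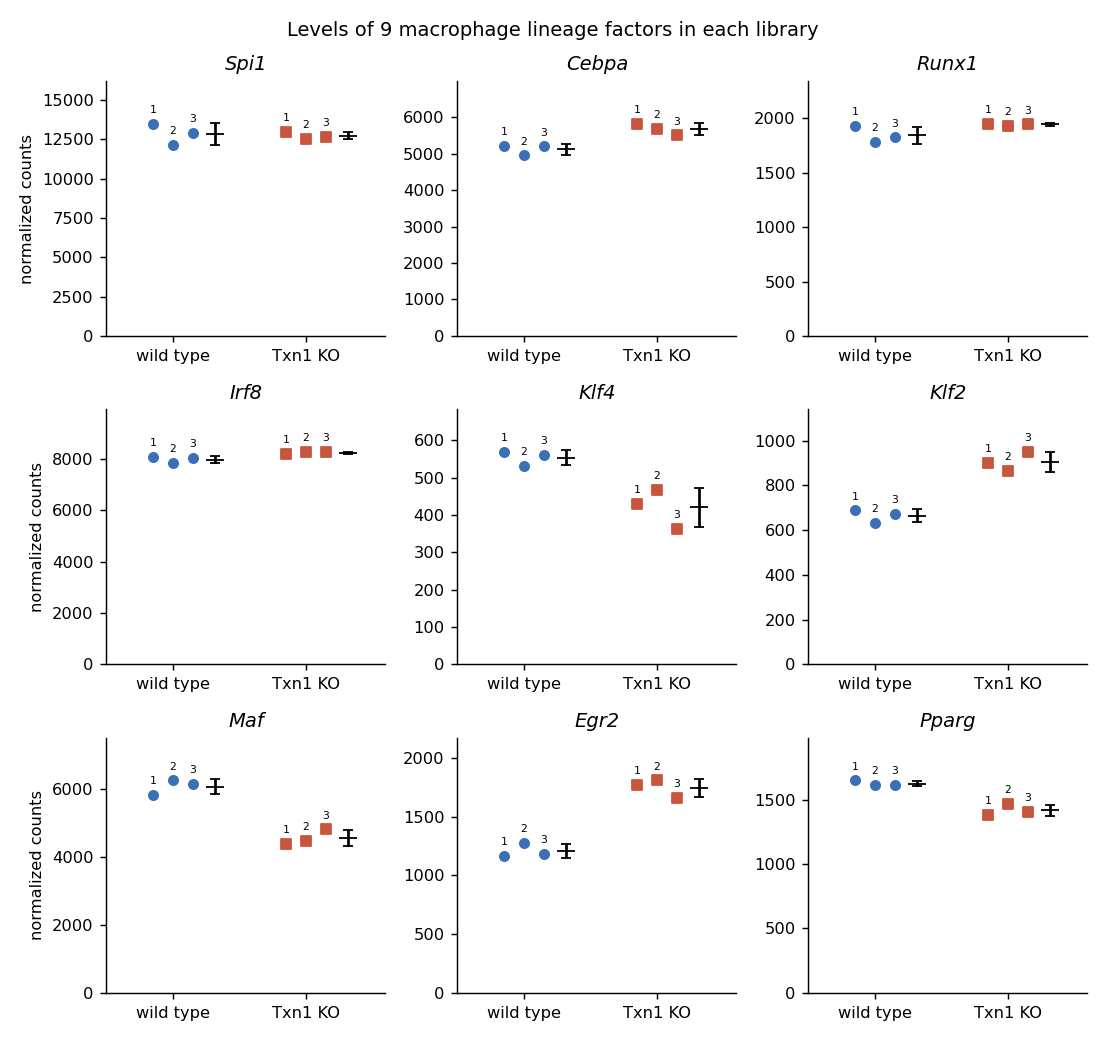
Normalized counts (vertical axes, each from 0) of the 9 factors in the 3 wild-type (circles) and 3 Txn1 KO libraries (squares). Small numbers give the replicate, and the bar beside each group is the mean ± SD. Egr2 and Klf2 sit higher in all 3 Txn1 KO libraries, Maf, Klf4 and Pparg lower, and Spi1 overlaps.

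The 2 Krüppel-like factors moved apart. Klf2 (ENSMUSG00000055148, chr8:72319033-72321656), known for holding back inflammatory activation of monocytes, had 687.8, 632.6 and 670.8 normalized counts in wild type and 899.6, 864.0 and 948.8 in Txn1 KO. The lowest Txn1 KO library was well above the highest wild-type one. This was a rise to 136% of wild type (log2 0.45 ± 0.061, SE; limma adjusted p = 3.91e-05). Endothelial cells also express Klf2. Their markers Pecam1 and Cdh5 were at 94.2 and 33.6 normalized counts in Txn1 KO library 3, the lowest of that group. Pecam1 rose over the groups (log2 0.96, limma adjusted p = 0.0108), and its part in the rise of Klf2 was not tested.

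Klf4 (ENSMUSG00000003032, chr4:55527143-55532466), which promotes monocyte differentiation and takes part in the interleukin-4 response, fell. It had 568.6, 530.8 and 560.1 normalized counts in wild type and 428.9, 467.9 and 363.4 in Txn1 KO. The groups did not overlap, and Txn1 KO library 3 was the lowest. The fall was to 75.9% of wild type (log2 -0.40 ± 0.087, SE; limma adjusted p = 0.00255). The Txn1 KO libraries varied by 12.6% of their mean (SD), the widest spread of any of the 9 factors in either group. Without both libraries with liver transcripts the difference was -0.28 and missed the threshold (limma adjusted p = 0.0533). Fibroblasts also express Klf4, and stromal and endothelial markers, 11 of 12 listed, none at 0 and Col1a1 and Col1a2 the highest, summed to 2372 to 2762 normalized counts in wild type and 1245 to 2297 in Txn1 KO, lowest in Txn1 KO library 3. Of these 11 markers 6 were called lower and 1 higher (63.6%, against 21.5% of all tested genes). Their part in the fall of Klf4 was not tested.

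Klf4 also lies on the chromosome of the targeted gene, 2.42 Mb from the start of Txn1. Within 5 Mb of Txn1, 11 of 40 tested genes were called (27.5%, Klf4 among them), 8 of them higher and 3 lower. The share was 22.2% within 2 Mb and 21.2% within 10 Mb, near the 21.5% of all tested genes. The called genes nearest to Klf4 rose: Rad23b, a DNA repair factor (log2 0.19), Zfp462, a zinc finger gene (1.33), and Ptpn3, a tyrosine phosphatase (0.38). A chromosome segment that came along with the Txn1 allele, if there was one, cannot be told apart from the genotype. Egr2 shares chromosome 10 with Lyz2 but lies 49.7 Mb away.

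The ratio of Klf4 to Klf2 within a library does not depend on the size factor. It was 0.827, 0.839 and 0.835 in the wild-type replicates and 0.477, 0.542 and 0.383 in the Txn1 KO libraries. The mean was 0.834 ± 0.00632 in wild type and 0.467 ± 0.0797 in Txn1 KO (SD, n = 3 each). The log2 ratio differed by -0.85 between the groups (exact two-sided permutation test over 20 divisions, p = 0.1, the smallest that 3 against 3 allows; adjusted over the 4 pairs computed, 0.133). Per kb of exon, Klf4 and Klf2 together came to 540.8 ± 21.8 normalized counts in wild type and 627.3 ± 5.82 in Txn1 KO (SD, n = 3 each).

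Spi1 to Cebpa and Irf8 to Irf4 differed by less. Spi1 stood at 2.60, 2.45 and 2.48 times Cebpa in wild type and at 2.23, 2.21 and 2.30 times in Txn1 KO, without overlap (log2 difference -0.16, exact permutation p = 0.1; adjusted over 4 pairs, 0.133). Irf8 exceeded Irf4, the related factor of dendritic cells and B cells, by 88.5 to 149.7 times in wild type and by 102.5 to 124.1 times in Txn1 KO. Those ranges overlap (exact permutation p = 0.9). Irf4 itself was low, at 69.2 ± 17.8 and 74.5 ± 7.56 normalized counts (SD, n = 3 each).

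**Figure D3:**
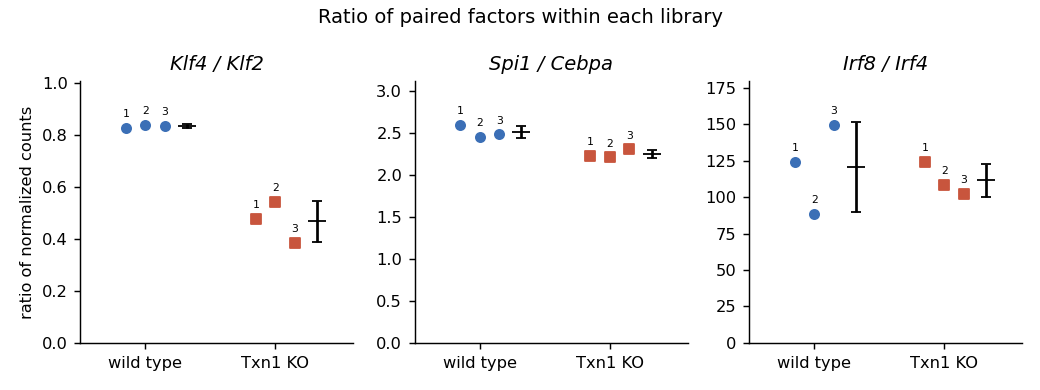
Ratio of normalized counts of 2 factors within each library (vertical axes, each from 0), wild type as circles and Txn1 KO as squares, with mean ± SD beside each group. Klf4 to Klf2 is lower in all 3 Txn1 KO libraries, Spi1 to Cebpa is slightly lower, and Irf8 to Irf4 overlaps.

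Maf (ENSMUSG00000055435, chr8:115682942-115707794) fell by about as much as Klf4, with less spread between the Txn1 KO libraries. It encodes c-MAF, a large MAF protein of resident and interleukin-10-producing macrophages. Wild-type replicates had 5810, 6247 and 6149 normalized counts, and Txn1 KO libraries had 4369, 4466 and 4807. A wide gap separates the groups. Maf kept 74.9% of its wild-type level (log2 -0.42 ± 0.042, SE; limma adjusted p = 1.23e-06). The annotated antisense gene Gm15655 overlaps 5.34% of the Maf exon bases and was not analysed here.

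Egr2 (ENSMUSG00000037868, chr10:67535475-67542188) had the largest difference of the 9. It encodes a zinc finger factor that signals from growth factor and interleukin-4 receptors switch on in macrophages. It rose from 1167, 1274 and 1181 normalized counts in wild type to 1770, 1808 and 1661 in Txn1 KO. The lowest Txn1 KO library exceeded the highest wild-type one by a margin larger than the spread in either group. The rise was to 145% of wild type (log2 0.53 ± 0.052, SE; limma adjusted p = 7.70e-07). The related genes Egr1 (88.6 ± 10.4 and 92.3 ± 12.1 normalized counts, SD, n = 3 each) and Egr3 (16.8 ± 11.2 and 17.7 ± 9.41) did not pass the test. Of the corepressors of EGR proteins, Nab2 rose slightly (log2 0.12, limma adjusted p = 0.0496) and Nab1 did not pass (log2 -0.05).

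Pparg (ENSMUSG00000000440, chr6:115360951-115490399) encodes the nuclear receptor PPARγ, which senses fatty acids and is known for its part in alveolar and lipid-laden macrophages. It had 1649, 1613 and 1612 normalized counts in wild type and 1382, 1466 and 1402 in Txn1 KO. Wild-type values lay close together, and all Txn1 KO values were below them. The fall was to 87.2% of wild type (log2 -0.20 ± 0.046, SE; limma adjusted p = 0.00450). Pparg is annotated with 3 starts here, and whole-gene counts cannot say which of them changed.

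Compared per kb of exon, the order of the 9 factors shifted in its middle and at its foot. In wild type the mean levels were 4767 normalized counts per kb for Spi1, 1941 for Cebpa, 1132 for Irf8, 736.4 for Maf, 550.2 for Pparg, 359.3 for Klf2, 355.3 for Egr2, 181.4 for Klf4 and 153.2 for Runx1. Only Klf2 and Egr2 overlapped as neighbours in that order. Spi1 was at or above 97.7% of tested genes by this measure, and Runx1 at or above 55.3%. In Txn1 KO the first 3 places were the same, while Maf (551.8), Egr2 (514.0), Klf2 (489.5) and Pparg (479.7 normalized counts per kb) came so close that each overlapped the next. Runx1 (161.5) stood above Klf4 (137.8) there, without overlap. Exon length is the union over annotated transcripts, 12025 bases for Runx1, so the level of a gene with many transcripts is understated.

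**Figure D4:**
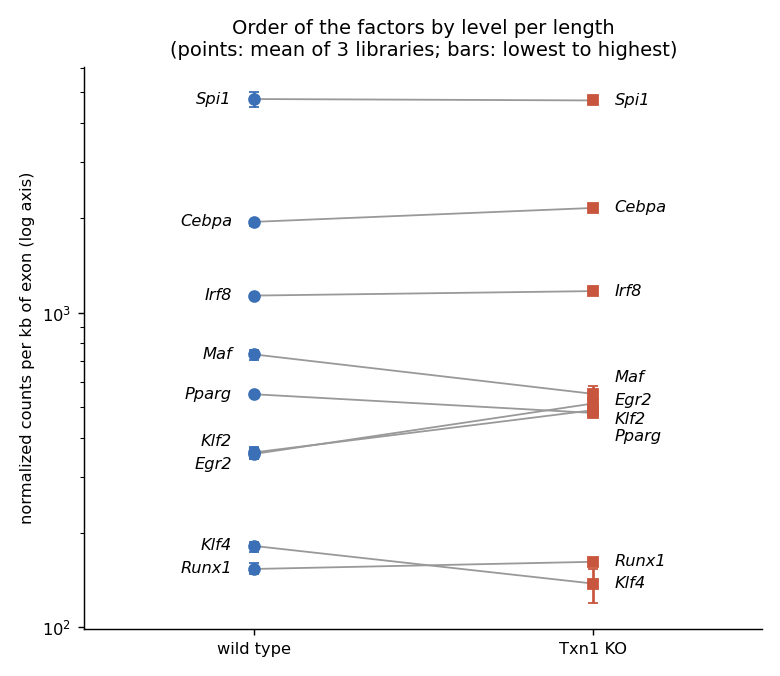
Mean normalized counts per kb of exon (log axis) of each factor in wild type (circles) and Txn1 KO (squares), with bars from the lowest to the highest of 3 libraries. Maf, Egr2, Klf2 and Pparg converge in Txn1 KO, between 479.7 and 551.8, and Klf4 and Runx1 change places.

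Relatives and partners of the 9 factors were taken from lists, which like the factors were drawn up with earlier results known. Among 16 ETS, C/EBP and RUNX relatives 5 rose and 1 fell, with a median log2 difference of 0.08 (all tested genes, -0.0049). Cebpb, the C/EBP factor of activated macrophages, rose from 1130 ± 147 to 1894 ± 18.2 (SD over 3 libraries; adjusted p = 5.53e-07, limma). Spic, an ETS factor of iron-recycling macrophages, rose from 38.1 ± 12.8 to 96.7 ± 12 and Runx3 from 206.0 ± 17.7 to 304.1 ± 4.60. The member that fell was Ddit3, the stress-induced C/EBP relative CHOP (log2 -0.45). Cbfb, the partner subunit of RUNX1, did not pass the test. The count of risers was 3 without wild-type replicate 1 and also without both libraries with liver transcripts.

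Among 16 MAF, IRF, KLF and EGR relatives and partners, 6 rose and 0 fell, with a median of 0.09. They included Mafg, a small MAF protein that pairs with NRF2 (log2 0.33 ± 0.047, SE; limma adjusted p = 6.64e-05), Bach1, a repressor at the same sites (0.16), and Irf5, an interferon regulatory factor of inflammatory macrophages (0.12). Without Txn1 KO library 2, 3 rose and 1 fell, and without wild-type replicate 1 also 1 fell. Among 11 PPAR and RXR partners 3 rose and 0 fell (median 0.06). That is 27.3% called, near the 21.5% of all tested genes. While Pparg fell, its obligate partner Rxra rose from 1673 ± 66.9 to 2066 ± 63.5 normalized counts (limma adjusted p = 0.000104), Nr1h3, which encodes the oxysterol receptor LXRα, rose to 125% of wild type, and Ppard, the sister receptor, to 114%.

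In the list of 18 other macrophage and myeloid regulators 6 rose and 2 fell (median 0.13). Id2, which blocks E proteins and favours dendritic cell fates, rose from 2877 ± 27.3 to 4875 ± 200.3 normalized counts (limma adjusted p = 2.37e-10), more than any of the 9 factors. Bhlhe41, a repressor that limits macrophage renewal genes, rose by 0.36 (log2). Mef2c and the repressor Bcl6 fell (log2 -0.45 and -0.29).

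Known or likely target genes were then counted per factor. The lists do not say whether a factor raises or lowers a gene. Of 22 identifiers in the PU.1 list 8 rose and 6 fell (median -0.01), while Spi1 itself did not pass. The falls were led by Fcgr1, the high-affinity IgG receptor, and Cd14, the lipopolysaccharide co-receptor (log2 -0.71 and -0.47). The rises were led by Itgam, which encodes CD11b, and Csf2ra, the GM-CSF receptor chain (log2 0.48 and 0.37). Itgam was listed under 2 identifiers, and the second, at 8.62 and 29.5 normalized counts, may share its reads. Without wild-type replicate 1, 3 of the list fell.

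Of 17 genes in the MAF target list 8 fell and 3 rose (median -0.18). C1qb and C1qa, chains of complement C1q, fell to 60.0% and 59.1% of wild type. Mertk, the receptor for dying cells, rose from 2035 ± 117 to 3172 ± 150 normalized counts, and Marco, a scavenger receptor, from 91.5 ± 8.38 to 314.2 ± 44.9 (limma adjusted p = 3.73e-08 and 2.28e-08). Members of this list thus went both ways, while Maf fell.

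In the PPARγ list 3 of 14 rose and 4 fell (median -0.05). Cd36, the fatty acid transporter, rose from 8933 ± 376 to 13381 ± 279 normalized counts and Fabp4, the fatty acid carrier, from 3451 ± 49.0 to 4865 ± 217 (adjusted p = 2.64e-09 and 6.77e-08, limma), while Pparg was lower. Tgm2, a transglutaminase, rose by 0.51 (log2). Acadl, an enzyme of fatty acid oxidation, fell to 69.7% of wild type.

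In the IRF8 list 3 of 14 rose and 2 fell (median 0.0067). Ciita, the master switch of MHC class II genes, rose by 0.86 and the flagellin sensor gene Naip5 by 0.21 (log2). Other Naip genes beside Naip5 are nearly identical, which makes its value uncertain. Ccl5, a chemokine, and Ctsc, a lysosomal protease, fell (log2 -0.63 and -0.22). The risers numbered 1 without both libraries with liver transcripts. In the list of KLF2 and KLF4 targets 3 of 10 rose and 1 fell (median 0.07). Thbd, which encodes thrombomodulin and is a known KLF2 target, rose from 415.9 ± 42.2 to 538.2 ± 8.76 normalized counts, and Cd9 and Sgk1 rose by 0.24 and 0.18 (log2). S1pr1, a receptor for sphingosine 1-phosphate, fell (log2 -0.18, limma adjusted p = 0.0370), a call that was lost without any 1 of wild-type replicates 1, 2 and 3 or Txn1 KO library 2, without both libraries with liver transcripts and in the authors' deposited table, leaving 0 that fell.

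**Figure D5:**
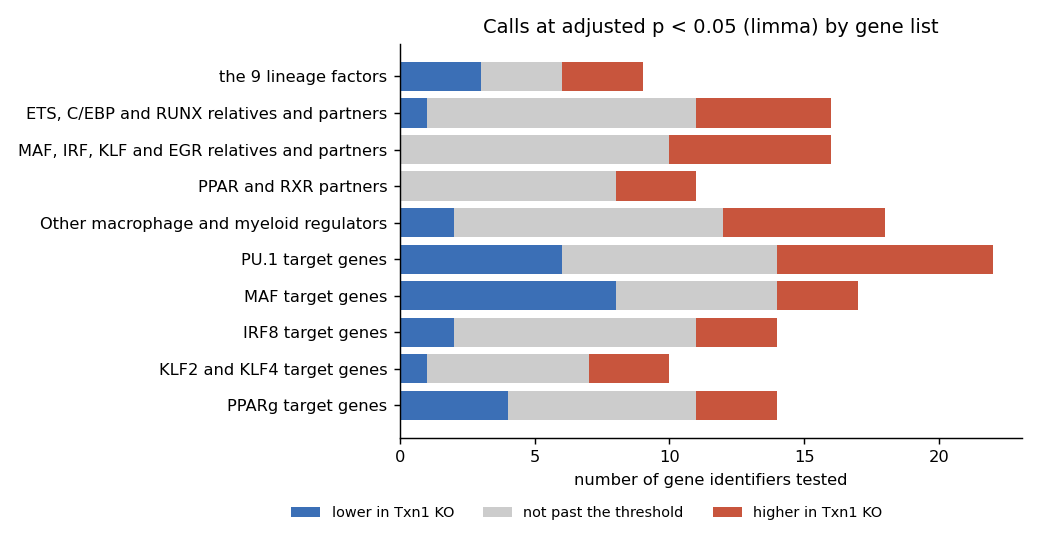
Number of gene identifiers tested (horizontal axis) in each list, split into those lower in Txn1 KO, those not past the threshold and those higher, at a limma adjusted p under 0.05. The 9 factors split 3, 3 and 3, the MAF target list holds 8 lower genes, and the lists of MAF, IRF, KLF and EGR relatives and of PPAR and RXR partners hold none that fell.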

How the data were processed

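PolyA-selected RNA of 6 libraries was sequenced. Per the submitters' processing notes, reads were trimmed with Trimmomatic 0.36, aligned with STAR 2.5.2b to GRCm38 (mm10) and analysed with DESeq2. In the sources used here, the counting tool, its annotation and its strand setting are not given. Deposited signal values are normalized counts (the authors' counts over a library size factor): 100% of them were whole multiples of what 1 read is worth (tolerance 0.01 reads). The deposited table also gives the authors' log2 fold changes and p-values.

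The main test was limma 3.58.1 (R 4.3.3, trended prior) on log2(normalized count + 1), after removing the 28 of 14005 genes whose mean was under 10. The fold is understated for low genes. The count tests on recovered reads were edgeR 4.0.16 (quasi-likelihood) and DESeq2 1.42.0. Both, like the authors' deposited table, called 6 of the 9 factors, with 9 of 9 in the same direction as limma. Scripts were tested on simulated data. Replicate numbers did not pair the libraries (correlation of deviations -0.27, 0.14 and -0.33).

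Members and lists were chosen with earlier results of these data known. 1 of the 4 pairs of factors is not reported here. The text names all 9 factors, up to 4 called genes with the smallest p per pathway list, the highest of each marker list, and the genes nearest Klf4 and most like Egr2. Pecam1, Cdh5, Cbfb, Egr1, Egr3, Nab1 and Nab2 were chosen after their values were seen. Positions and exon lengths came from GENCODE M21 on GRCm38.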

Additional observations from a re-analysis of the deposited data

How the results depend on the processing

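Of 144 values (9 factors under 16 alternatives each), 140 kept their direction and their side of the threshold, 2 changed sign (Spi1, which did not pass, ran from -0.054 to 0.023 when 1 library was left out, the latter without wild-type replicate 1, and was 0.027 without both libraries with liver transcripts) and 2 missed the threshold (Cebpa and Klf4, given beside their results). With the replicate number as a block, 3 factors were called higher and 3 lower, and no call on a factor changed; S1pr1 lost its call. Same-numbered libraries did not deviate together. At an adjusted p under 0.01, 1024 of all genes were higher and 809 lower, against 1607 and 1394 at 0.05. Leaving out 1 library at a time gave 1197 to 1516 higher and 891 to 1304 lower (891 without wild-type replicate 3). The log2 ratio of Irf8 to Irf4 ran from -0.29 to 0.087 when 1 library was left out and was 0.0094 without both libraries with liver transcripts. Of 180 list counts 19 moved by more than 1.5 times. The share of genes called near Lyz2 was 10% within 2 Mb, 15.8% within 5 Mb and 21.1% within 10 Mb. Depth did not limit the factors, whose lowest value was 363.4 normalized counts. With 3 libraries a group, the exact tests of ratios cannot go below p = 0.1.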

Other observations

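Among tested genes with a mean of at least 100, those whose log2 levels over the 6 libraries were most like Egr2 were Clec7a, Ciita and Tmod1, with a Pearson r of 0.997 each. The 6 points share 2 groups, so genes that differ between the groups with little spread within them correlate highly. Clec7a, which encodes the beta-glucan receptor dectin-1, went from 13348 ± 418 to 17695 ± 706 normalized counts and Tmod1, which encodes an actin-capping protein, from 89.9 ± 7.69 to 230.0 ± 12.8 (SD, n = 3 each).

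Of 7 osteoclast markers tested, 6 were called higher and 1, Mmp9, lower, against 11.5% and 9.97% of all tested genes. The most abundant, Atp6v0d2, a proton pump subunit, went from 15239 ± 114 to 17325 ± 1035 normalized counts, and Itgb3, the integrin beta chain of osteoclasts, from 5887 ± 175 to 7517 ± 631. Macrophages express both genes too.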
